A study of Bubalus bubalis with 6 samples.

Results

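Control cells that had received an adenovirus carrying EGFP, a green fluorescent protein, were described on their own: which genes made up most of their RNA, which lineage genes were present or near 0, and how far the 3 samples differed. The gene models described are those with a mean of at least 1 FPKM over the 3 EGFP samples, and 10945 of the 19476 models in the table met this rule (56.2%). FPKM is a count of fragments corrected for how long a model is and how deeply its sample was read, so levels of different genes can be set side by side on it. Of the 6 samples of the series, the 3 that carried the long non-coding RNA lncFABP4 were not used.

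The cells are intramuscular adipocytes of the buffalo Bubalus bubalis, genotype WT per the labels, grown in medium with 20% serum. Adenovirus was added at 80% confluence and the medium was changed after 3 hours. After 48 hours with the virus the cells received inducing medium for 48 hours, and RNA was taken on day 4. These cells therefore carry a viral vector and have been through an induction, and no untransduced or uninduced cells were analysed here. The labels speak of wells in triplicate and do not say that they came from separate animals or cultures, so the spread given here may be technical. Replicate 2 lay slightly apart from the other two in ribosomal protein and some other gene classes, and values without it are given where they matter. With 1 group there is no test between groups, and no p-value is given.

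Fat cells arise from fibroblast-like mesenchymal precursors. In muscle, such precursors lie between the fibres and are marked by the receptor PDGFRA, and an inducing medium sets off an ordered programme in which CEBPB acts early, PPARG and CEBPA follow, and genes of lipid storage and the hormone ADIPOQ (adiponectin) mark the mature cell. Fibroblasts, by contrast, are known for making collagen and other extracellular matrix. Cultures from muscle can also hold satellite cells (the muscle stem cells), vessel wall cells, endothelial cells and leukocytes, and genes that mark each of these are given below.

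The label was set against the defining genes of fat cells first. ADIPOQ had 0.0258, 0 and 0.0397 FPKM in EGFP replicates 1, 2 and 3, the order used for every triplet of values here. CEBPA, a transcription factor of terminal fat cell differentiation, had 0.153, 0.186 and 0.174 FPKM. PPARG, the nuclear receptor that directs fat cell formation, had 12.8, 12.2 and 11.8 FPKM. Thus PPARG stood above 1 FPKM in all 3 samples, while ADIPOQ and CEBPA stood far under it in all 3, so the markers of a mature fat cell that the label would call for were in part near 0. RNA of a whole culture cannot tell a smaller number of fat cells apart from less of this RNA in each cell.

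Extracellular matrix and iron storage genes headed the list of levels. FTL, the light chain of the iron store ferritin, had 5062, 4539.8 and 5235 FPKM. MMP2, a protease that cuts collagen and gelatin, had 5039, 4679.9 and 5049.7 FPKM. COL1A2, a chain of type I collagen, had 4942, 4686 and 4707 FPKM. These were the 3 highest means of the table, and their order was not the same in every sample, with COL1A2 above MMP2 in replicate 2.

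DCN (decorin), a small proteoglycan that binds collagen fibrils, had 4439.7, 4122 and 4144 FPKM. SPARC, a secreted collagen-binding glycoprotein, had 3865, 3447 and 3799.5 FPKM. VIM (vimentin), the intermediate filament protein of mesenchymal cells, had 3653, 3196 and 3987 FPKM. SPARC and VIM were lowest in replicate 2, and VIM varied more than the other genes at this level, with a coefficient of variation (CV, the SD as a percentage of the mean) of 10.99%. COL1A1 averaged 3629 ± 155 FPKM and COL3A1 3031 ± 45.1 FPKM (SD, n = 3). The ferritin heavy chain FTH1 averaged 2446 ± 124 FPKM and LDHA, which makes lactate from pyruvate, 2049.8 ± 42.1 FPKM.

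**Figure D1:**
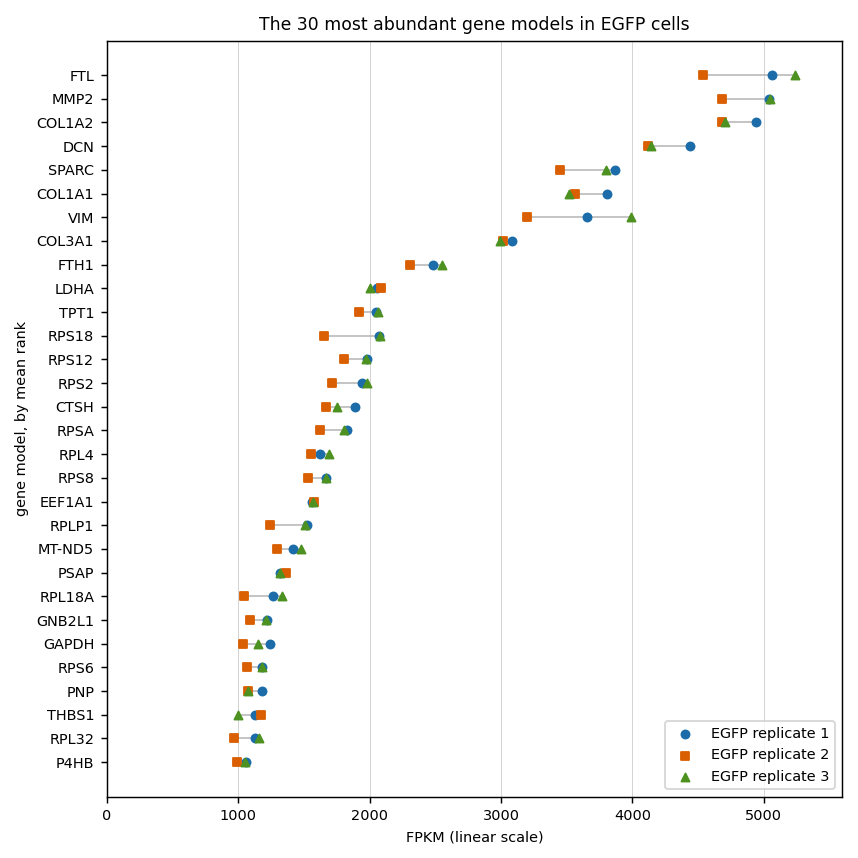
Levels of the 30 gene models with the highest mean, in FPKM on a linear axis, with a point for each of the 3 EGFP samples and a grey line over their range. FTL, MMP2, COL1A2 and DCN are the 4 highest, DCN with a mean of 4235 FPKM, and most ribosomal protein genes have their lowest point in replicate 2.

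Among the 30 highest models, 10 were ribosomal protein genes, with RPS18 at 1933 ± 246 FPKM and RPS12 at 1918 ± 98.8 FPKM. Others were the lysosomal protease CTSH at 1771 ± 112 FPKM, the elongation factor EEF1A1 at 1569 ± 7.24 FPKM and the lysosomal lipid-handling precursor PSAP at 1335 ± 25.8 FPKM. The purine enzyme PNP averaged 1109 ± 59.6 FPKM. MT-ND5 averaged 1396 ± 94.3 FPKM, yet the identifier of its model names chromosome X and not the mitochondrial genome, and no other model carried a mitochondrial genome name. Genes with close copies, among them ferritins, ribosomal proteins, actins, tubulins, GAPDH and HSPA1A with HSPA1B, can share reads, and their separate values are uncertain.

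Levels were concentrated in few models. The 10 highest models held 10.7% ± 0.205 of the summed FPKM of a sample, the 100 highest 32.4% ± 0.876 and the 1000 highest 64.5% ± 0.862 (SD, n = 3). In all, 381 models made up 50% of the total and 4537 made up 90%. The median mean level of the 10945 models was 9.31 FPKM, and together they held 99.5% of the summed values. The same models filled the top ranks in the 3 samples: 9 of the 10 highest and 93 of the 100 highest were shared by all 3 samples. Column totals were 353099, 340165 and 353465 FPKM, and the number of reads behind them is unknown.

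By class, cytosolic ribosomal proteins held 12.8% ± 0.747 of the summed values, over 128 models with a mean of at least 1 FPKM. Collagens held 4.57% ± 0.142, matrix genes other than collagens 4.53% ± 0.0819, and matrix proteases with their inhibitors 2.503% ± 0.0472. Glycolysis held 2.15% ± 0.0553 with 17 models, and the nuclear genes of the respiratory chain and ATP synthase 1.08% ± 0.0426 with 74 models. These shares are not a like comparison. Of 17 listed glycolysis names 16 were in the table, but only 5 of 10 listed names of cytochrome oxidase, a part of the respiratory chain. The respiratory class was also set by a name pattern that takes in NDUFAF assembly factors. The collagen share rested on COL1A2, COL1A1 and COL3A1: with the 10 most abundant models taken out of the total, collagens held 1.44%, glycolysis 1.74%, the respiratory chain 1.21% and matrix proteases with their inhibitors, of which MMP2 was removed, 1.22%. Keratins, the filaments of epithelia, held 0.000450%, and KRT10 at 1.21 ± 0.215 FPKM was the only one of 8 keratin models at 1 FPKM or above.

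Within the collagens, the fibril-forming chains stood highest, and minor fibrillar, beaded-filament and basement membrane chains followed. COL5A2 averaged 797 ± 29.6 FPKM and COL5A1 476 ± 21.8 FPKM. COL6A2 averaged 658 ± 49.0 FPKM, COL6A1 588 ± 52.1 FPKM and COL6A3 338 ± 31.7 FPKM. Of the basement membrane chains, COL4A1 averaged 598 ± 21.1 FPKM and COL4A2 434 ± 21.6 FPKM. These type I and type IV chains kept nearly fixed ratios across the samples: COL1A2 over COL1A1 was 1.30, 1.31 and 1.34, and COL4A1 over COL4A2 was 1.35, 1.41 and 1.38. The 2 ferritin chains likewise kept a ratio of 2.04, 1.97 and 2.05 (FTL over FTH1). Type VI chains did not all move together. COL6A3 was highest in replicate 2, with 336, 371 and 308 FPKM, while COL6A1 was lowest there, with 625, 528 and 610 FPKM.

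Outside the collagens, the matrix list held the adhesive glycoproteins THBS1 at 1098 ± 91.8 FPKM, FN1 at 1011 ± 41.6 FPKM and POSTN at 529 ± 27.7 FPKM. CCN1, a secreted matricellular protein, averaged 712 ± 47.1 FPKM and BGN (biglycan) 688 ± 87.4 FPKM. The crosslinking enzyme LOXL2 averaged 506 ± 30.4 FPKM. On the protease side, MMP14, the membrane protease that activates MMP2, averaged 429 ± 19.8 FPKM, and its inhibitor TIMP2 190.5 ± 17.2 FPKM. CTSB averaged 920.1 ± 52.4 FPKM and the serpins SERPINE2 and SERPINH1 averaged 738 ± 50.9 and 526 ± 27.8 FPKM. LUM, ELN, CCN2, TIMP1 and TIMP3 were not analysed here.

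Fat cell genes were split. Of 23 listed genes, 17 were in the table under their names, and 12 of these reached a mean of 1 FPKM. Among all models the share that did so was 56.2%, and among named models, as these genes are, it is higher. Models without a gene name were 43.7% of the models under 1 FPKM and 7.68% of the others. A list somewhat above 56.2% can therefore still lie under the share of named models. The count alone therefore does not set fat cell genes apart from other named genes, and no difference was tested. Counts of the other gene lists are to be read against the same shares. RBP4, a retinol carrier secreted by fat cells, had 216, 141 and 236 FPKM. FABP4, the fatty acid binding protein of fat cells, had 154, 149 and 197 FPKM. CD36, a fatty acid transporter, had 39.9, 44.9 and 38.4 FPKM. RBP4 had its lowest value in replicate 2 and its CV was well above that of CD36, and for FABP4 replicate 3 stood above the other two.

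The enzymes of the fat cell list stood lower. PNPLA2, which starts triglyceride breakdown, averaged 20.9 ± 1.75 FPKM and the fatty acid synthase FASN 16.4 ± 0.550 FPKM. LPL, which frees fatty acids from lipoproteins, had 2.34, 2.40 and 3.60 FPKM. The hormone-sensitive lipase LIPE averaged 3.08 ± 0.462 FPKM, the lipid droplet protein CIDEC 2.07 ± 0.137 FPKM, the triglyceride-forming enzyme DGAT2 1.91 ± 0.480 FPKM and the adipokine CFD 1.73 ± 0.0538 FPKM. Besides ADIPOQ and CEBPA, 3 listed genes lay under 1 FPKM: the insulin-responsive glucose transporter SLC2A4 at 0.544 ± 0.0791, the droplet coat PLIN4 at 0.306 ± 0.0175 and CIDEA at 0.176 ± 0.0898. PLIN1, LEP and AQP7 were not analysed here. A model without a gene name, evm.model.chr23.157, whose deposited protein match is the bovine acyl-CoA desaturase (the SCD product), had 18.6, 18.9 and 17.0 FPKM; it was noticed after the values were seen and is not in the count.

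Lists of names were set around these genes, and the share of each name in its list was taken on the same FPKM scale. CEBPB, an early factor of fat cell differentiation, held 74.0% ± 3.80 of the summed levels of the listed C/EBP names, and CEBPA 0.0702% ± 0.0131. Most of the rest was CEBPZ, at 22.9% ± 3.42, while CEBPD held 0.00469% ± 0.00812 and was listed at 0 in replicates 1 and 3. CEBPZ was listed by its name, which does not show that it is a paralog of CEBPB. The CEBPB share therefore depends on CEBPZ being counted. PPARG held 63.9% ± 2.19 of the PPAR levels, against 22.5% ± 2.39 for PPARA and 13.6% ± 0.266 for PPARD. FABP4 held 97.0% ± 0.225 of the summed levels of the 5 fatty acid binding proteins found by name, of 9 listed. FABP5 was among the listed names not analysed here, so FABP4 was not compared with it. Among the 4 droplet coats found by name, of 5 listed, PLIN2, which is made in many cell types, held 96.5% ± 0.280 with 356, 347 and 339 FPKM, while PLIN5 was listed at 0. CEBPB was lowest in replicate 2, with 200.1, 153 and 195 FPKM.

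Brown and beige fat genes were low. Of 9 in the table, 4 reached a mean of 1 FPKM, led by COX7A1, the heart and muscle form of a cytochrome oxidase subunit, at 6.96 ± 1.04 FPKM and TMEM26 at 4.28 ± 0.561 FPKM. UCP1, which uncouples respiration for heat, was listed at 0.0123, 0 and 0 FPKM. PRDM16, a transcriptional regulator of brown fat, had 0.0148, 0.126 and 0.0832 FPKM. The defining genes UCP1 and PRDM16 were thus at or near 0 in each sample.

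Fibroblast and precursor genes made up the most abundant marker list: 15 of 19 in the table reached 1 FPKM. Besides the collagens, DCN and VIM, the mesenchymal transcription factor PRRX1 had 182, 212 and 198 FPKM. PDGFRA, the receptor that marks precursors in muscle, had 50.5, 85.7 and 81.7 FPKM. Replicate 1 was the low sample for PDGFRA, and the other two lay close together. S100A4 averaged 378 ± 29.6 FPKM, PDPN 70.6 ± 9.25 FPKM, and the transcription factors TWIST1 and TWIST2 averaged 33.0 ± 4.82 and 13.8 ± 1.59 FPKM.

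The 4 fibroblast or precursor genes under 1 FPKM were PI16 at 0.907 ± 0.0942, TCF21 at 0.653 ± 0.0945, ZNF423 at 0.464 ± 0.159 and CD34 at 0.0310 ± 0.0217 FPKM. PI16 and CD34 mark stem-like fibroblasts of connective tissue, and ZNF423 is known in mouse as a factor of preadipocyte commitment. All 8 of the listed surface antigens of cultured mesenchymal stromal cells that were in the table reached 1 FPKM, with ITGB1 at 354 ± 32.1, THY1 at 249 ± 26.7, NT5E at 159 ± 8.27, CD44 at 64.0 ± 3.53 and ENG at 48.8 ± 10.8 FPKM. In ENG, replicate 3 stood apart at 61.3 FPKM, against 43.2 and 42.0 FPKM in replicates 1 and 2.

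**Figure D2:**
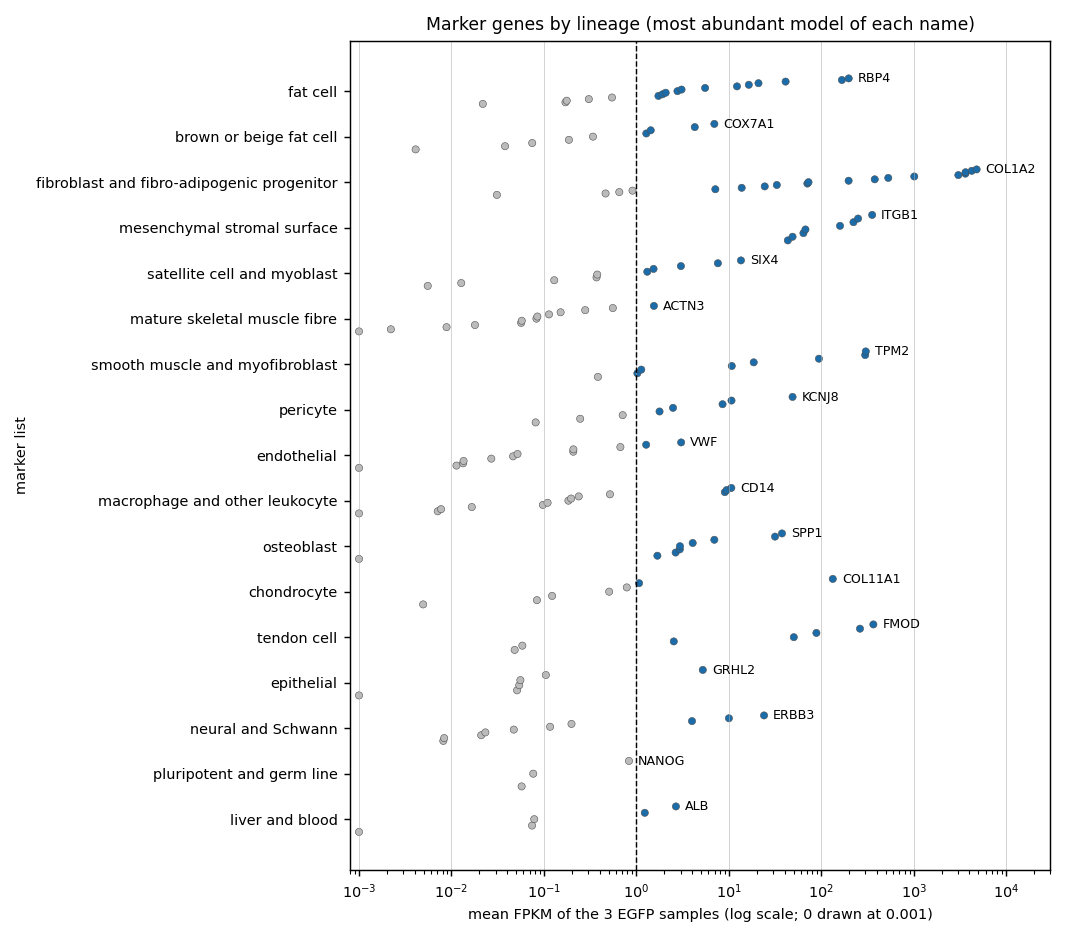
Mean FPKM over the 3 EGFP samples of each marker gene found in the table, on a log axis, in 17 lineage lists, with the dashed line at 1 FPKM, values at or above it in blue and values under it in grey. The gene with the highest mean is named in each list, and the fibroblast list reaches 4779 FPKM (COL1A2), while the highest endothelial gene is VWF at 3.05 FPKM.

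Muscle fibre genes were low, and satellite cell and myoblast genes were mixed. Of 13 muscle fibre genes in the table, 12 were under 1 FPKM, and ACTN3, an actinin of fast fibres, averaged 1.55 ± 0.323 FPKM. ACTA1, the skeletal actin, had 0.0817, 0.181 and 0.0776 FPKM, and the muscle creatine kinase CKM 0.128, 0.171 and 0.155 FPKM. The giant sarcomere protein TTN averaged 0.0567 ± 0.00272 FPKM, and ACTN2 was listed at 0. Satellite cell and myoblast genes gave 5 of 10 at 1 FPKM or above, against 56.2% of all models and a higher share of named ones. Among the 5 were SIX4 at 13.5 ± 0.355, DES at 3.03 ± 0.60, NCAM1 at 1.53 ± 0.0104 and the embryonic myosin MYH3 at 1.31 ± 0.187 FPKM. MYF5, a myogenic determination factor, averaged 0.129 ± 0.0632 FPKM and PAX3 0.0127 ± 0.0112 FPKM. MYOD1, PAX7 and MYOG, the defining factors of these cells, were not analysed here, so their levels are not known.

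Smooth muscle and myofibroblast genes stood much higher, and 7 of 8 reached 1 FPKM. ACTA2, the smooth muscle actin that marks myofibroblasts, had 119, 96.0 and 67.5 FPKM. ACTG2, a further smooth muscle actin, had 359.9, 288 and 247 FPKM. TPM2, a tropomyosin, had 355, 289 and 263 FPKM. The thin-filament protein CNN1 showed the same order of samples, with 21.2, 19.7 and 14.8 FPKM, so replicate 1 was highest and replicate 3 lowest for all 4 genes. SMTN lay at 10.7 ± 0.179 FPKM with no such order. MYH11, the smooth muscle myosin, averaged 1.13 ± 0.220 FPKM and MYLK 0.383 ± 0.0349 FPKM.

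Cytoplasmic and smooth muscle actins can share reads. As deposited, ACTB held 42.3% ± 0.929 of the summed actin levels, ACTG1 38.6% ± 0.860, ACTG2 14.5% ± 0.823 and ACTA2 4.54% ± 0.705, against 0.00563% ± 0.00304 for the skeletal actin ACTA1. All 4 of these actins were highest in replicate 1 and lowest in replicate 3. Over the cytoskeleton list, 22 of 35 models were highest in replicate 1 and 20 were lowest in replicate 3. Among all 10945 models, 26.7% were highest in replicate 1 and 25.04% lowest in replicate 3.

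Pericyte genes gave 5 of 8 at 1 FPKM or above, against 56.2% of all models and a higher share of named ones. KCNJ8 and ABCC9, the pore and the regulatory subunit of a potassium channel of vessel wall cells, averaged 48.8 ± 3.58 and 10.7 ± 1.30 FPKM. CSPG4 averaged 2.49 ± 0.612 FPKM and NOTCH3 1.78 ± 0.279 FPKM, while MCAM lay at 0.247 ± 0.0938 FPKM and HIGD1B at 0.0813 ± 0.0254 FPKM. RGS5 was not analysed here.

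Endothelial genes were near 0: 10 of 12 were under 1 FPKM. PECAM1 was listed at 0 in each sample, CDH5 averaged 0.0518 ± 0.0140 FPKM and KDR 0.0113 ± 0.00981 FPKM. The exceptions were VWF at 3.05 ± 0.174 FPKM and ERG at 1.27 ± 0.333 FPKM. Of 13 leukocyte genes, 10 were under 1 FPKM, with PTPRC (CD45) at 0.0113, 0.00626 and 0.00563 FPKM, CSF1R at 0.109 ± 0.0541 FPKM and SPI1 at 0.0973 ± 0.0317 FPKM. The 3 at 1 FPKM or above were CD14, the endotoxin co-receptor, at 10.6 ± 2.35, CD68 at 9.46 ± 1.09 and CD163 at 9.04 ± 0.304 FPKM, and each was lowest in replicate 1 and highest in replicate 3. The defining genes PECAM1 and PTPRC of both lineages were thus at or near 0 while single members of their lists were not.

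Genes of other skeletal lineages were mixed. Of 9 osteoblast genes, 8 reached 1 FPKM, with the secreted phosphoprotein SPP1 at 37.5 ± 4.27 FPKM and RUNX2, the transcription factor of bone formation, at 31.6 ± 1.41 FPKM. The phosphatase ALPL averaged 6.96 ± 1.14 FPKM and the bone matrix protein IBSP 2.66 ± 0.606 FPKM. DMP1, of osteocytes, was listed at 0. Tendon genes gave 5 of 7, with the proteoglycan FMOD at 365 ± 18.05 and the glycoprotein TNC at 262 ± 39.1 FPKM, whereas TNMD, a late tendon marker, averaged 0.0584 ± 0.0380 FPKM. Of 7 chondrocyte genes, COL11A1 at 133 ± 12.1 FPKM and SOX6 at 1.07 ± 0.205 FPKM reached 1 FPKM, and the cartilage genes ACAN and COL2A1 averaged 0.122 ± 0.0241 and 0.00494 ± 0.00855 FPKM. Without replicate 2, the chondrocyte count was 1.

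Epithelial, neural, germ line and liver genes were mostly under 1 FPKM. The epithelial cadherin CDH1 averaged 0.105 ± 0.0158 FPKM and ESRP1 was listed at 0, while GRHL2, an epithelial transcription factor, stood at 5.22 ± 0.482 FPKM as the only one of 6. Of 10 neural and Schwann cell genes, ERBB3 at 24.0 ± 0.931, TUBB3 at 10.01 ± 0.908 and SNAP25 at 3.99 ± 0.805 FPKM reached 1 FPKM, and the glial factor SOX10 averaged 0.00834 ± 0.0144 FPKM. NANOG, of pluripotent cells, had 0.919, 1.24 and 0.338 FPKM, and the pluripotent list had no gene with a mean of 1 FPKM, but 1 without replicate 3. ALB averaged 2.67 ± 0.369 FPKM and APOA1 1.23 ± 0.238 FPKM, and TTR was listed at 0.

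HOX genes are transcription factors in 4 clusters whose order along the chromosome matches the body axis, with low paralog numbers toward the head and high ones toward the tail and the limb ends. Of 27 HOX names in the table, 23 reached 1 FPKM. HOXC6 was the highest, with 76.8, 69.9 and 79.1 FPKM. HOXA9 had 24.0, 19.7 and 25.6 FPKM, HOXB6 averaged 23.0 ± 3.47 FPKM, HOXB8 20.9 ± 4.73 FPKM and HOXD4 18.6 ± 2.10 FPKM. Paralog groups 4 to 9, with 16 names in the table, held 87.9% of the summed HOX levels. Groups 1 to 3, with 5 names, held 6.11%, and groups 10 to 13, with 6 names, held 5.94%. The groups thus differ in their number of names, and HOXC6 alone averaged 75.3 FPKM of a sum of 263 FPKM. By cluster, HOXC held 42.1%, HOXA 23.5%, HOXB 22.0% and HOXD 12.4%, while HOXA13 averaged 0.123 ± 0.165 FPKM, HOXD13 0.0663 ± 0.0461 FPKM and HOXC13 1.21 ± 0.272 FPKM. These shares cover the HOX names in the table, and several names of the clusters were not analysed here.

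**Figure D3:**
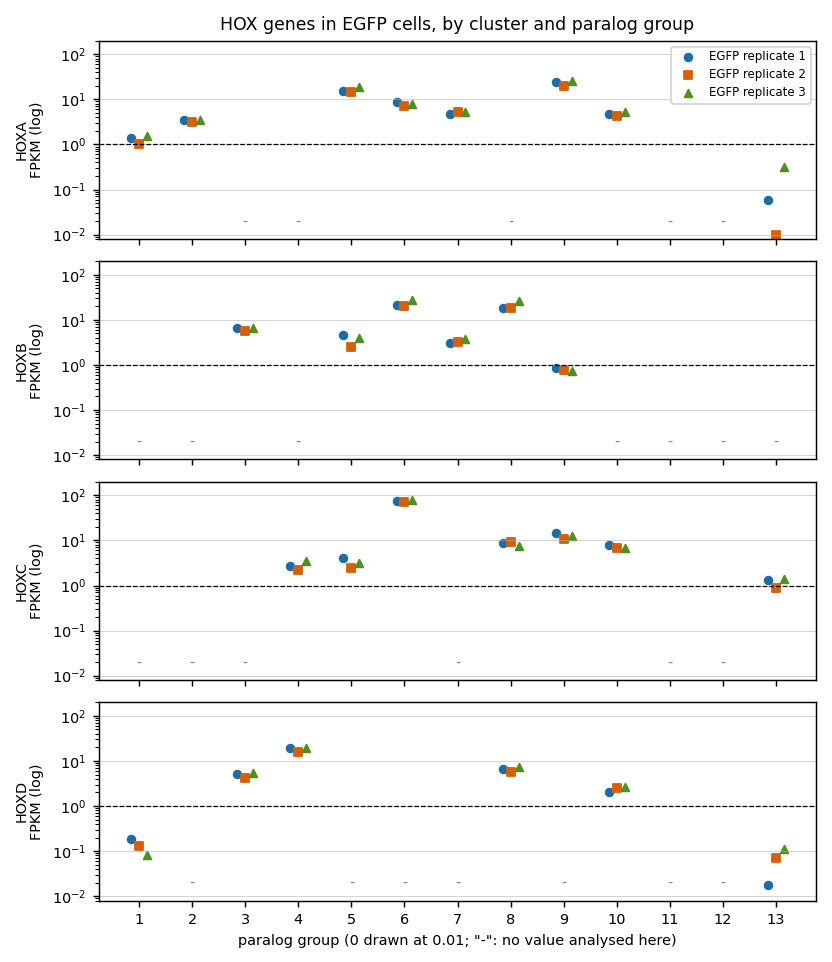
FPKM of each HOX gene in the table in the 3 EGFP samples, on a log axis, by paralog group across and by cluster down the page, with a dashed line at 1 FPKM. HOXC6 is highest in each sample, most genes of groups 4 to 9 lie above 1 FPKM, and HOXA13 and HOXD13 lie under it.

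Other patterning factors covered a wide range of levels. EN1, a homeobox factor of the dermomyotome and limb, had 25.1, 23.1 and 26.8 FPKM, and EMX2 had 23.1, 24.1 and 23.5 FPKM. TBX15, which marks certain fat and muscle regions, had 18.1, 17.5 and 18.5 FPKM. These 3 genes varied little, and so did TBX18, with 9.93, 9.91 and 9.84 FPKM. IRX3 averaged 15.1 ± 2.33 FPKM, TBX3 13.4 ± 0.478 FPKM and MEOX2 11.2 ± 1.62 FPKM. TBX5 and TBX4, factors of the fore and hind limb field, averaged 0.0239 ± 0.0219 and 0.0231 ± 0.0155 FPKM, and GATA4 and FOXL2 were listed at 0. Over the list, 20 of 35 factors in the table reached 1 FPKM, against 56.2% of all models. That share includes models without a gene name, which were 43.7% of the models under 1 FPKM and 7.68% of the others. Among named models, as these factors are, the share is higher.

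In most, not all, of the energy metabolism families listed, a single isoform held most of the summed level. SLC2A3, a high-affinity glucose transporter, had 639.7, 707 and 565 FPKM, against 10.8, 9.72 and 9.20 FPKM for SLC2A1, so that SLC2A3 held 98.4% ± 0.171 of the listed glucose transporters. LDHA held 87.7% ± 0.152 of the lactate dehydrogenases and ENO1 98.7% ± 0.195 of the enolases. The liver form of glycogen phosphorylase, PYGL, held 93.3% ± 0.247 and the muscle form PYGM 0.0539% ± 0.0224. HK1 held 89.0% ± 0.958 of the hexokinases and ATP2A2 98.4% ± 0.248 of the SERCA calcium pumps. The phosphofructokinases were split, with PFKL at 61.6% ± 2.17 and PFKP at 29.7% ± 1.06. The cytochrome oxidase list pools different subunits, and 5 of its 10 names were in the table, so no isoform shares are given for it. COX7A2 over COX7A1, forms of the same subunit, was 6.33, 6.71 and 5.22. Of the muscle-type isoforms, PYGM and CKM were under 1 FPKM, whereas PFKM averaged 10.2 ± 1.5 FPKM, ENO3 2.41 ± 2.14 FPKM, PGAM2 1.37 ± 0.152 FPKM and the ADP/ATP carrier SLC25A4 36.7 ± 6.30 FPKM.

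Receptors for hormones and growth factors reached 1 FPKM in 23 of 31 cases, against 56.2% of all models and a higher share of named ones. After PDGFRA, IGF2R, which clears insulin-like growth factor 2, had 55.8, 69.4 and 54.2 FPKM. NR3C1, the glucocorticoid receptor, had 10.7, 16.8 and 11.6 FPKM. INSR, the insulin receptor, had 3.39, 4.98 and 3.94 FPKM. Replicate 2 was the high sample for each of these 3 genes, and it was highest for 18 of the 23 receptors (78.3%), against 37.1% of all 10945 models. PDGFRB averaged 43.4 ± 7.17 FPKM, the adiponectin receptors ADIPOR2 and ADIPOR1 36.7 ± 1.36 and 28.4 ± 2.96 FPKM, FGFR1 29.5 ± 1.47 FPKM and IGF1R 23.3 ± 1.62 FPKM. The leptin receptor LEPR and the oestrogen receptor ESR1 averaged 0.00581 ± 0.0101 and 0.0141 ± 0.0244 FPKM.

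Because the cells had met an adenovirus, the receptors that adenoviruses can use and the interferon genes were described too. CXADR, the receptor of many adenoviruses, had 4.13, 5.76 and 3.85 FPKM. CD46, used by others, had 99.9, 111 and 115 FPKM. The integrin chain ITGAV, which serves in virus entry, had 47.0, 70.5 and 45.6 FPKM, and DSG2 averaged 0.00420 ± 0.00727 FPKM. CXADR and ITGAV were both highest in replicate 2.

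Of 14 interferon response genes, 9 reached 1 FPKM, against 56.2% of all models and a higher share of named ones. The antiviral proteins IFIT3, IFIT5 and MX1 averaged 43.7 ± 0.492, 41.6 ± 5.44 and 15.3 ± 3.15 FPKM. ISG15 and RSAD2, a pair of strongly induced interferon targets, averaged 0.812 ± 0.358 and 0.287 ± 0.0547 FPKM. OAS2 had 1.16, 2.31 and 3.38 FPKM, and 8 of the 9 genes were lowest in replicate 1, against 34.8% of all 10945 models. The EGFP samples have no untransduced counterpart here, so the part of the virus in these levels was not tested.

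Genes of the cell cycle and of its arrest were described next. CDKN1A (p21), which halts the cell cycle, had 296, 289.9 and 271 FPKM. MKI67, the usual mark of dividing cells, had 0.501, 0.390 and 0.354 FPKM. CCNB1, the mitotic cyclin, had 0.492, 0.542 and 0.576 FPKM. CDKN1A lay close together in the 3 samples, and MKI67 was highest in replicate 1. Of 21 cycle genes, 17 reached 1 FPKM, led by the thymidylate synthase TYMS at 84.4 ± 0.867 FPKM and the replication helicase subunits MCM5 and MCM7 at 44.6 ± 1.13 and 29.5 ± 0.357 FPKM, while MCM2, MCM3 and MCM4 averaged 2.41 ± 0.275, 2.46 ± 0.232 and 2.35 ± 0.107 FPKM. All 13 genes of the arrest and senescence list reached 1 FPKM, among them CDKN1B at 17.1 ± 0.826 and CDKN2A at 12.3 ± 1.37 FPKM. LMNB1 averaged 4.81 ± 0.316 FPKM.

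Of 15 secreted inflammatory genes listed, 7 were in the table and 6 of these reached 1 FPKM. The neutrophil chemokine CXCL8 had 309.7, 328 and 407 FPKM. IL6 had 39.0, 35.9 and 32.5 FPKM. PTGS2, which makes prostaglandins, had 8.33, 23.7 and 31.9 FPKM, so its replicate 1 stood well under the other two. CXCL1 averaged 87.8 ± 8.90 FPKM and CCL2 20.9 ± 1.30 FPKM. IL1A averaged 0.240 ± 0.171 FPKM, and the other 8, among them IL1B and TNF, were not analysed here. Of 20 immediate early genes, which respond within minutes to growth signals or handling, 19 reached 1 FPKM, with JUNB at 215 ± 20.3 FPKM and FOS at 72.8 ± 9.67 FPKM. ATF3 had 7.34, 2.23 and 2.86 FPKM, with replicate 1 apart, and 14 of the 19 were lowest in replicate 2 (73.7%), against 40.2% of all 10945 models.

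Replicate spread was small for most models. The median CV over the 10945 models was 8.87%, with 6207 models (56.7%) under 10% and 453 (4.14%) over 30%. It was larger at low levels: the median CV was 12.5% for 3511 models from 1 to 5 FPKM, 8.29% for 4427 models from 5 to 20 FPKM, 6.71% for 2490 models from 20 to 100 FPKM, 6.42% for 486 models from 100 to 1000 FPKM and 5.37% for 31 models above that. Across the 10945 models, Pearson's r on log2(FPKM + 1) was 0.987 for replicates 1 and 2, 0.991 for replicates 1 and 3 and 0.987 for replicates 2 and 3. These correlations are across genes, which are not independent replicates, and Spearman's rho lay between 0.983 and 0.988. Between 94.1% and 96.0% of models lay within 1.5-fold in a pair of samples, and 128 to 141 models differed by more than 2-fold.

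Replicate 2 stood slightly apart. It was lowest for 107 of 128 ribosomal protein models (83.6%), for 54 of 74 respiratory chain and ATP synthase models (73.0%) and for 19 of 25 HOX models (76.0%), against 40.2% of all 10945 models. Ribosomal proteins held 13.2%, 11.9% and 13.2% of the summed values. Without replicate 2, the median CV was 5.38%, and the ribosomal share was 13.2%. The median CV was 8.28% without replicate 1 and 8.09% without replicate 3. These CVs come from 2 samples each and are not a like measure to the CV over 3 samples. The samples carry no batch label, and what moves with replicate 2 beyond these values was not tested.

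**Figure D4:**
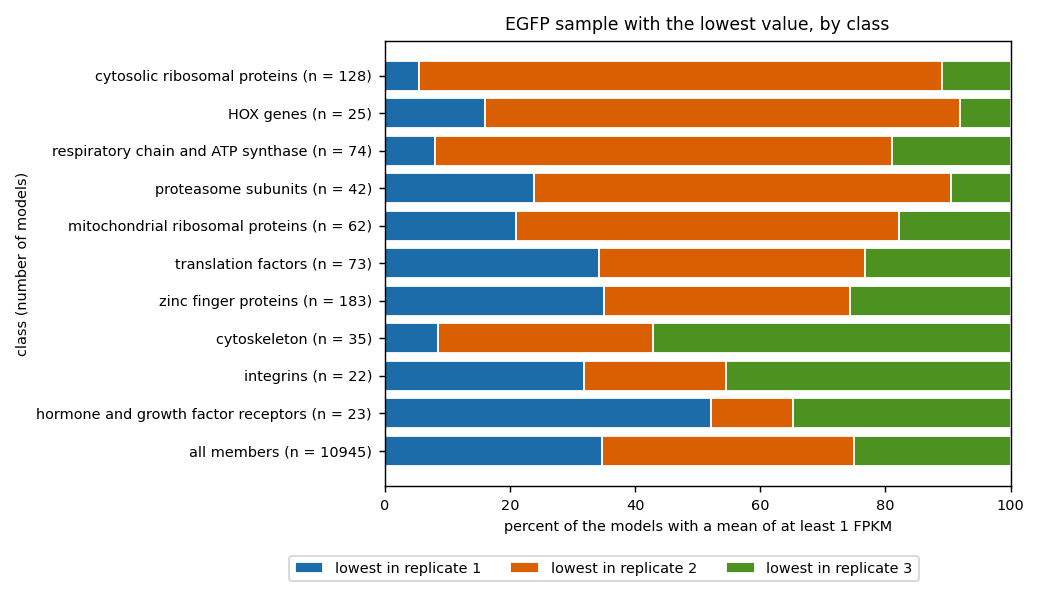
Percent of the models of each class that had their lowest value in EGFP replicate 1, 2 or 3, in stacked bars that sum to 100, with the number of models in brackets and all 10945 models in the bottom row. Ribosomal proteins are lowest in replicate 2 in 83.6% of models, against 40.2% over all models, while cytoskeleton models are mostly lowest in replicate 3.

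Among 5047 named models with a mean of at least 10 FPKM, 70 had a CV over 30%. The largest belonged to TBPL1, a relative of the TATA-binding protein, with 6.85, 65.4 and 8.54 FPKM. S1PR3, a sphingosine 1-phosphate receptor, had 14.8, 14.95 and 0.532 FPKM. CYP1B1, a cytochrome P450 that oxidises steroids and xenobiotics, had 2.04, 20.8 and 19.4 FPKM. In each of these genes a single sample stood apart, and it was a different sample each time: replicate 2 high, replicate 3 low and replicate 1 low.

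DAG1, the dystroglycan precursor, had 24.1, 3.29 and 16.4 FPKM. KIRREL1, an adhesion protein, had 28.8, 31.0 and 4.98 FPKM. ID2, an inhibitor of helix-loop-helix factors, had 8.99, 7.58 and 20.1 FPKM. Among the 15 most variable, 14 had a pair of samples within 1.5-fold and the other sample more than 2-fold away, as had 31 of the 70. The sample set apart was replicate 1 in 18, replicate 2 in 22 and replicate 3 in 30 of the 70. Over all 5047 models it was replicate 2 in 2611, replicate 3 in 1256 and replicate 1 in 1180.

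At the other end, INTS1, a subunit of the Integrator complex, had a CV of 0.0508% at 10.9 FPKM. ATMIN followed at 0.0899% and the translation factor EIF4H at 0.139%. CRISPLD2, a secreted protein, had 439, 442 and 441 FPKM, a CV of 0.396%.

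**Figure D5:**
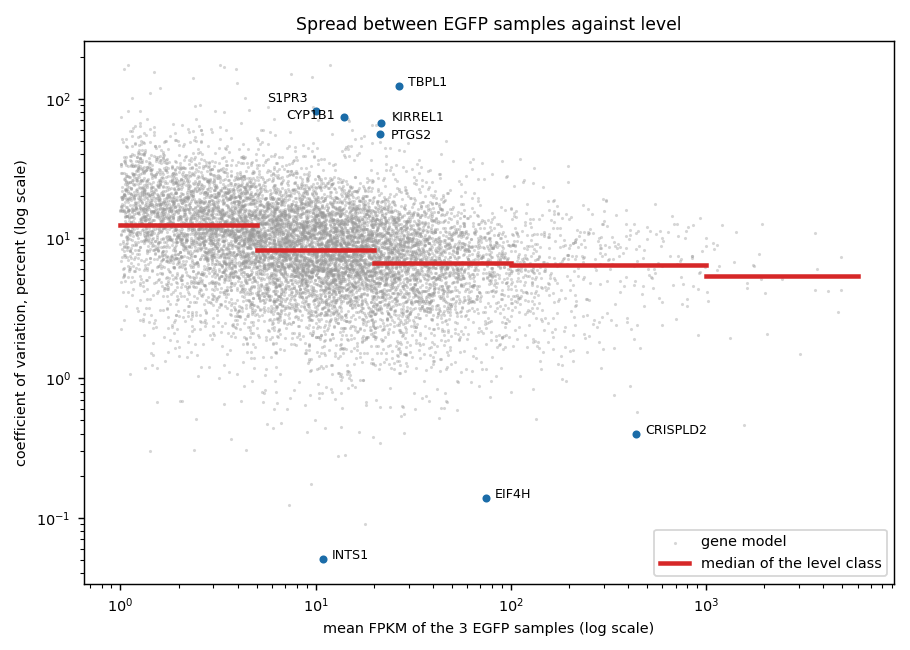
Coefficient of variation over the 3 EGFP samples against the mean FPKM for the 10945 models, both on log axes, with a red line at the median of each level class and selected genes in blue. The median CV is 12.5% in the lowest level class and 5.37% in the highest, and TBPL1 lies highest and INTS1 lowest of the labelled genes.

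The lower bound of 1 FPKM has no gap in the values. Just inside it lay TRIM45 and CLEC4E, and just outside the unnamed model evm.model.chr2.193 and NLRP3 at 0.999 FPKM. Of the 10945 models, 10590 were at 1 FPKM or above in each of the 3 samples and 355 were under it in at least 1 sample, and 841 (7.68%) had no gene name, against 3729 of the 8531 models under the bound (43.7%). Among the 100 highest models, 3 had no gene name, and the highest was evm.model.chr8.332 with 525, 542 and 585 FPKM.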

How the data were processed

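Polyadenylated RNA was sequenced on a DNBSEQ platform, per the labels. Each gene model has 1 deposited value for every sample. The values were read as FPKM: its header names no unit, and the decimals as deposited have column totals that differ between samples. Per the submitters' processing notes, the tools were HISAT2 and StringTie, with no version stated. Which genome build and which annotation served is not given in the sources used here, and no coordinates or sequences are printed. The number of reads behind a value is unknown, so no counting interval is given.

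The table has 6 columns of values, 3 of them EGFP, and 0 without a sample. Models with a mean of at least 1 over the 3 EGFP columns were kept (Python 3.11.15, pandas 2.3.3, numpy 2.4.6, scipy 1.17.1, matplotlib 3.10.9). Values were not rescaled. For each model the mean, SD and CV over 3 samples were taken, shares were computed per sample over all 19476 models, and pairs of samples were compared on log2(FPKM + 1) with a pseudocount of 1. The code was tested on simulated data. Names matched to the table cover 492 of 619 listed genes. Where several models share a name, the most abundant was used for the levels and counts of the lists and for ratios. Shares of a gene within its family summed all models of a name, and classes were formed by name over all models. Shares of HOX clusters and paralog groups used the most abundant model of each name. Of 127 listed names not analysed here, 101 are symbols or synonyms in RefSeq's buffalo annotation.

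The members and lists were chosen with earlier results of these data known. The genes named are the 30 highest models, up to the 8 most abundant members of a list and any marker under 1 FPKM, the 15 largest and 10 smallest CVs among named models of at least 10 FPKM, the models next to the bound, and a few set genes such as ADIPOQ and PTPRC. Others named within a list, such as COL4A2, COL6A3, HOXA13, HOXC13, HOXD13, GATA4, FOXL2, DSG2, PLIN5, CEBPD, ISG15, RSAD2, LMNB1, ATF3, NR3C1, INSR, LEPR, ESR1, TBX4, TBX5, MCM2, MCM3, MCM4, MKI67, CCNB1 and IL1A, were chosen after their values were seen. In a few lists a member is counted but not reported here.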

Additional observations from a re-analysis of the deposited data

How the results depend on the processing

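No paired analysis was possible because 1 group is described and no result comes from a test. With the models of a name summed, the 10, 100 and 1000 most abundant held 11.1%, 33.8% and 66.0%. With the 10 most abundant models taken out of the total, ribosomal proteins held 14.3%, collagens 1.44%, glycolysis 1.74%, other matrix genes 2.53% and matrix proteases with their inhibitors 1.22%; the removed models include 3 collagens, DCN, SPARC and LDHA. A share was said to move when it differed from the mean of the 3 samples by more than their SD. Of 16 other class shares, 15 moved with the 10 most abundant models taken out and 0 with the total of the members alone. A class with no removed model rises under the former setting because the total is smaller. With a sample left out 0 moved, but that result was fixed beforehand: leaving out 1 of 3 samples cannot shift a mean by more than the SD. Marker counts at a mean of at least 5 FPKM were 7 for fat cells, 1 for brown or beige fat, 2 for satellite cells, 0 for muscle fibres, 3 for pericytes, 0 for endothelium, 3 for osteoblasts, 1 for chondrocytes and 0 for liver and blood. Smaller changes at that bound were 5 for smooth muscle, 4 for tendon and 2 for neural genes. At a mean of at least 0.5 FPKM the counts were 2 for muscle fibres, 4 for chondrocytes and 1 for pluripotent cells. Smaller changes there were 13 for fat cells, 17 for fibroblasts, 6 for pericytes, 3 for endothelium and 4 for leukocytes. Leaving out a sample gave 1 to 2 chondrocyte genes (1 without replicate 2) and 0 to 1 pluripotent genes (1 without replicate 3). It also gave 3 brown or beige fat genes without replicate 3 and 6 smooth muscle genes without replicate 2.

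The median CV was 15.2% with no filter on low values and lay between 5.38% and 8.28% with a sample left out, lowest without replicate 2. The mean Pearson r was 0.984 with a pseudocount of 0.1, 0.994 with no filter, and 0.987 to 0.991 with a sample left out. The mean Spearman rho was 0.977 with no filter and 0.983 to 0.988 with a sample left out. The number of models with a mean of at least 1 FPKM was 10941 to 10965 with a sample left out. The pattern for olfactory receptors also took olfactomedin genes and gave 0.106%; without them, an alternative chosen after seeing the data, it gave 0.000130%. Unknown depth limits what a value near 0 shows, and a gene listed at 0 may be present under the detection limit.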

Other observations

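Cathepsins, the lysosomal proteases, held 1.05% ± 0.0441 of the summed values, with 8 of 11 models at 1 FPKM or above. Besides CTSH and CTSB, CTSD averaged 416 ± 9.29 FPKM, CTSZ 174 ± 20.7 FPKM and CTSA 118 ± 3.41 FPKM. Chemokines held 0.136% ± 0.0155, and CCL20, with 5.17, 5.17 and 7.21 FPKM, stood with CXCL8 among the 6 of 8 chemokine models that were highest in replicate 3, against 36.2% of all 10945 models. These gene families were chosen after the values were seen.

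Of the transcription factor families, all 4 TEAD models, 0 of 4 GATA models and 14 of 33 FOX models reached 1 FPKM, against 56.2% of all models in the table, with no test of a difference. The 56.2% includes models without a gene name, and the share among named models is higher. The FOX models were led by FOXK2 at 28.7 ± 1.65 FPKM, with FOXO1 at 13.6 ± 0.944 FPKM. SOX4 averaged 26.8 ± 0.440 FPKM in the more abundant of its models and SOX11 6.30 ± 0.226 FPKM. A model named SOX9-A had 0, 0.0446 and 0 FPKM.

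By the chromosome named in the model identifier, the share of models with a mean of at least 1 FPKM ran from 50.1% on chromosome 20 to 69.2% on chromosome 24, and was 42.6% for unplaced models and 52.1% on chromosome X.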
